A study of Bos taurus with 16 samples.

Results

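The subunits of cohesin were followed through bovine pre-implantation development, from the mature oocyte to the blastocyst. The 9 genes were chosen by name: SMC1B, REC8, STAG3 and RAD21L1 are subunits of meiotic cohesin, and SMC1A, SMC3, RAD21, STAG1 and STAG2 are those of mitotic cohesin. All 9 were found among the 27393 loci of the deposited data, and 8 had at least 1 read in at least 1 of the 16 samples.

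The data were obtained by RNA-Seq of single bovine oocytes that matured in vivo and single embryos that developed in vivo, with 2 samples at each of 8 stages. The stages were mature oocytes (MII), 2-, 4-, 8- and 16-cell embryos (2C, 4C, 8C and 16C), early morulae (EM), compact morulae (CM) and blastocysts (BL). By the account of the study, embryonic genome activation (EGA) takes place in the interval from the 4-cell to the 8-cell stage. The 4C samples were counted as before EGA, which gives 6 samples (MII, 2C and 4C) before it and 10 (8C to BL) after it. No treatment was applied, the breed and age of the animals were not given in the sources used here, and the RNA of each sample went through 2 rounds of amplification before the libraries were made. Each sample is 1 oocyte or 1 whole embryo, and the labels do not say whether the 2 samples of a stage came from separate animals, so p-values measure only the spread between these samples.

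Cohesin is a ring that holds sister chromatids together from DNA replication until they separate, and it also shapes chromatin loops. SMC3 and an SMC1 protein form most of the ring, a kleisin closes it, and a STAG protein binds the kleisin. In meiosis SMC1B, the kleisins REC8 and RAD21L1, and STAG3 take the places that SMC1A, the kleisin RAD21, and STAG1 or STAG2 hold in dividing body cells, while SMC3 serves in both. In mammalian oocytes the cohesin loaded before birth is known to hold chromosomes together through the long arrest before ovulation.

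Between 607672 and 3379426 reads per sample lay on the loci. Levels are given in CPM (reads on a locus for every 1e6 reads of the sample). With 3 reads taken as the smallest number that counts as detected, the floor lay between 0.888 and 4.94 CPM depending on the sample. Since no gene length enters CPM, levels are compared between samples for 1 gene and not between genes. In whole embryos, fewer transcripts per cell and fewer cells with the transcript cannot be told apart. Changes are given on the scale of log2(deposited value + 1), which understates the change of genes with few reads, and were tested by limma across all loci that passed a filter on low reads, with Benjamini-Hochberg adjustment at 0.05.

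The labels were checked against marker genes. The summed level of 8 oocyte genes lay between 2911 and 10061 CPM before EGA and between 4.91 and 56.4 CPM in 9 of the 10 samples after it. The exception was replicate 2 of the 8-cell stage, with 1417 CPM, of which 1347 CPM were H1FOO, a linker histone of oocytes. The other genes of the list had at most 18.3 CPM in that sample. The 2 replicates of that stage were also the least alike (Spearman rho 0.68 over 8166 loci, against 0.81 to 0.92 at the other stages). The summed level of 6 embryo genes lay between 142 and 306 CPM before EGA and between 2534 and 5953 CPM after it, most of it POU5F1. NANOG had no read and KRT18 at most 0.694 CPM before EGA, and both were present in several samples after it. KRT8 (0.59, limma adjusted p = 0.691) and GATA3 (1.12, limma adjusted p = 0.316) were not called, and CDX2 had 1 read. Of the 8 oocyte genes BMP15 was listed at 0 in every sample, within the same block of empty loci as STAG2. The 8 cumulus cell genes summed to between 78.4 and 321 CPM before EGA, most of it HAS2, and to at most 31.7 CPM after it, with INHA, AMH and FOXL2 at 0 throughout. The 6 sperm genes were at 0 before EGA and at most 9.81 CPM after it. The part of these cells in the results was not tested.

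SMC1B (XLOC_057795), the meiotic partner of SMC3 in the ring, was present in oocytes and early cleavage embryos and nearly absent from the 8-cell stage on. The 2 MII samples had 49.6 and 5.26 CPM, the 2C samples 7.99 and 45.9 CPM, and the 4C samples 30.6 and 31.3 CPM. No read was found in 9 of the 10 samples after EGA, and blastocyst replicate 1 had 3 reads, or 2.95 CPM. The groups did not overlap, since the lowest level before EGA was above the highest after it. Over all loci with a read, 5.07% had levels that were lower after EGA without overlap. A total of 386 reads in 6 samples before EGA stood against 3 reads in 10 samples after it, a ratio of pooled CPM of 112 with an exact 95% interval from 38.0 to 545. This interval and the others below cover counting error only. The 3-read floors of the 9 samples without SMC1B reads lay between 1.66 and 4.94 CPM, so lower levels were not detectable there.

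SMC1B did not reach the level of the filter in enough samples, so limma did not test it in the comparison before and after EGA. A two-sided exact permutation test over the 16 samples gave a difference of -4.88 (p = 1.2e-04, the smallest p this design allows). The last stage with SMC1B reads before the blastocyst was 4C, with 44 and 51 reads, and both 8C samples had none. SMC1B entered the model of 8 stages only through the stages at which it was high, so the tests of that model across EGA are not given for it. Between MII and 4C the fitted difference was 0.15 with an SE of 1.02 (limma adjusted p = 1), and its sign changed in 3 alternatives, so that no change before EGA was resolved. The low samples were MII replicate 2 and 2C replicate 1, with 12 reads each, while the other 4 samples before EGA had 30.6 to 49.6 CPM.

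STAG3 (XLOC_043542), the meiotic subunit that binds the kleisin, had few reads at every stage. Its levels were 3.55 and 0.876 CPM in MII, 1.33 and 5.03 CPM in 2C, and 6.25 and 2.46 CPM in 4C. After EGA 8C replicate 2 had 2 reads and 1 EM sample 1 read, and the other 8 samples had none. All 6 samples before EGA held STAG3 reads, 42 in total, against 3 reads after it, a ratio of 12.2 with an exact 95% interval from 3.89 to 61.4. The groups overlapped, because 8C replicate 2, at 1.92 CPM, lay above MII replicate 2 and 2C replicate 1. The exact permutation test, two-sided, gave a difference of -2.15 (p = 3.7e-04). STAG3 did not pass the filter in either limma model, and without the filter its adjusted p by limma was 1.8e-04, when 20.2% of all loci with a read were called lower after EGA. The 8C sample with STAG3 reads is the one with H1FOO at 1347 CPM, and the part of leftover oocyte transcripts in its value was not tested.

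RAD21L1 (XLOC_012873), the other meiotic kleisin, had 1 read in the whole series, in EM replicate 1. It was not detectable at this depth at any stage.

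REC8 (XLOC_004063), the kleisin that is cut when homologous chromosomes and later sister chromatids part in meiosis, followed the opposite course. Its levels were 0.886 and 3.51 CPM in MII, 11.98 and 9.17 CPM in 2C, and 25.0 and 15.4 CPM in 4C. They reached 70.5 and 90.4 CPM in 8C, 61.8 and 18.1 CPM in 16C, and 39.2 and 76.4 CPM in EM. The highest levels were 166 and 101 CPM in CM, followed by 119 and 119 CPM in BL. Both oocytes lay below every embryo, and 16C replicate 2 was the only sample after EGA below the highest sample before it.

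**Figure D1:**
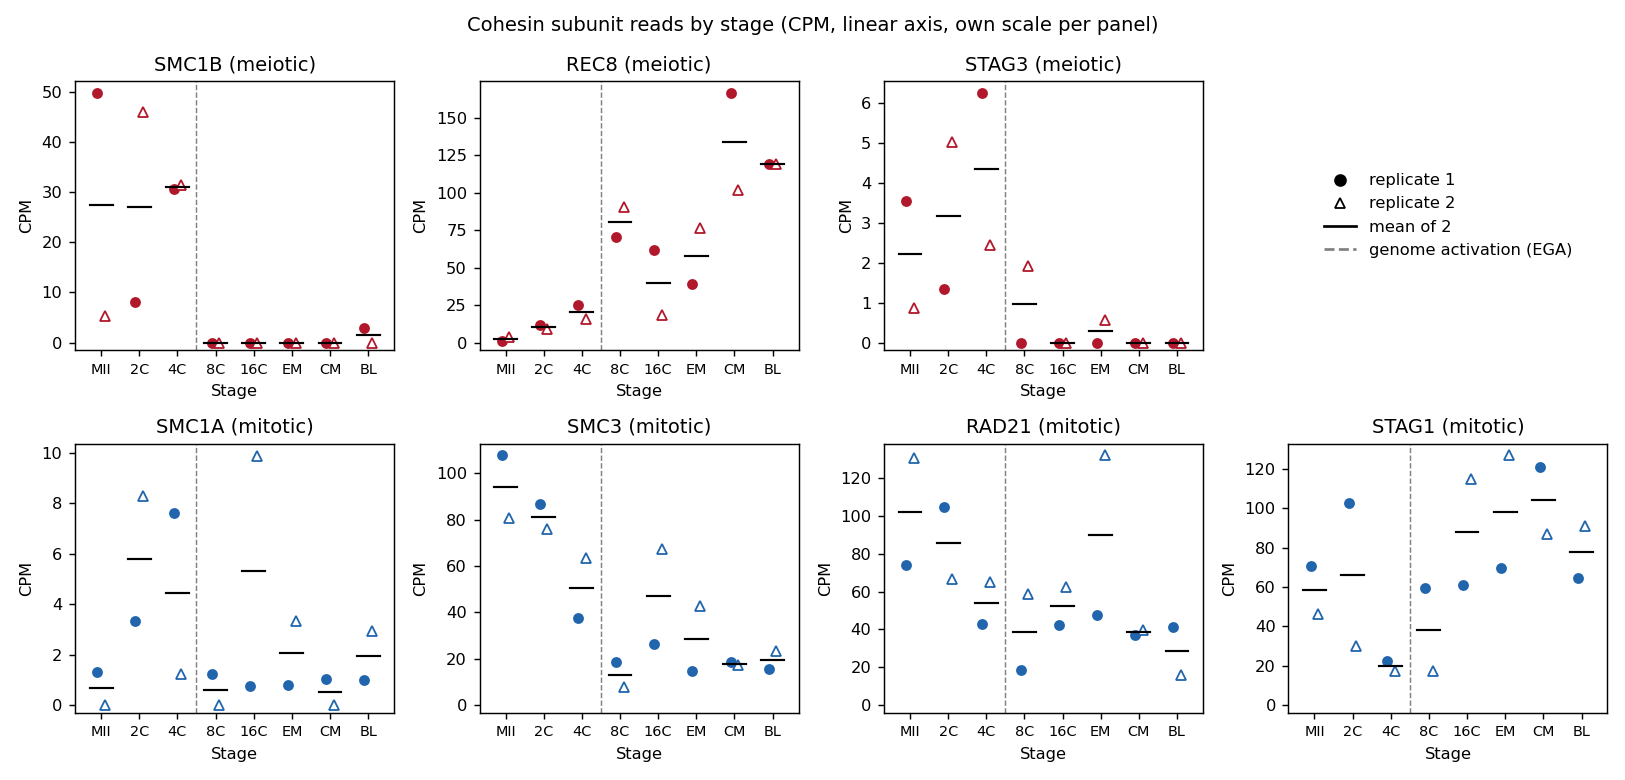
Reads in CPM (vertical axis, linear, with its own scale in each panel) of the 7 cohesin genes with more than 1 read, by stage (horizontal axis). Filled circles are replicate 1, open triangles replicate 2 and bars the mean of the 2 samples, and the dashed line marks genome activation. SMC1B and STAG3 lie at or near 0 to the right of the line, REC8 climbs from 2.20 CPM in MII to 134 CPM in CM, and SMC3 falls from 94.2 CPM in MII to 13.1 CPM in 8C.

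Means of REC8 were 11.0 ± 8.69 CPM before EGA (SD, n = 6) and 86.2 ± 42.9 CPM after it (SD, n = 10), and 120 reads stood against 934. The fitted change at EGA was 2.74 with an SE of 0.52. Since REC8 passed the filter through the samples after EGA, at which it was high, its call is not read as support. In this comparison 66.8% of the 6910 tested loci were called, 36.9% higher and 29.9% lower after EGA, and the median change of all tested loci was 0.23. The direction of REC8 held in all 28 alternatives. REC8 differed between stages (limma adjusted p = 3.4e-04), when 66.7% of 9670 loci did so.

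In order of its stage means, REC8 was highest in CM at 134 ± 45.7 CPM, and the 2 CM samples lay on both sides of the BL samples (119 ± 0.0306 CPM). The BL samples lay above those of the next stage, 8C, at 80.5 ± 14.1 CPM. From there 8C, EM (57.8 ± 26.3 CPM), 16C (40.0 ± 30.9 CPM) and 4C (20.2 ± 6.81 CPM) each overlapped their neighbour in the order. The 4C samples lay above 2C (10.6 ± 1.99 CPM), and these above MII (2.20 ± 1.85 CPM). All SDs of stage means are over 2 samples.

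Single steps of this course rested on 2 samples a stage and were less firm. From MII to 4C REC8 changed by 2.38 with an SE of 0.72, which missed the threshold (limma adjusted p = 0.0533). It was called in 5 of 26 alternatives and was 1.51 without MII replicate 1. From 4C to 8C it rose by 1.98 with an SE of 0.72 (limma adjusted p = 0.043), and 15 of 25 alternatives did not call it. From 16C to BL the change of 1.64 with an SE of 0.72 was not called (limma adjusted p = 0.195). It was 0.52 without 16C replicate 2 and 2.75 without 16C replicate 1. The share of loci called was 8.68% for 4C against MII, 36.8% for 8C against 4C and 5.57% for BL against 16C.

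REC8 adjoins IPO4, an importin gene, in the RefSeq annotation of assembly ARS-UCD2.0, with no base between their gene models. Whether reads were counted by strand is not given in the sources used here, so reads from the 2 genes may not be fully told apart. IPO4 (XLOC_003519) had 13 reads before EGA, all in 2 of the 6 samples, and 121 after it, in all 10 samples. Its fitted change was 2.74, as large as that of REC8, and rests on a group with mostly no reads. The part of IPO4 reads in the REC8 values was not tested.

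The loci whose levels went most closely with REC8 over the 16 samples, among 8365 named loci that passed the filter, were EIF3I (a translation initiation factor, Pearson r = 0.95), C25H16orf93 (r = 0.93) and FAM158A (r = 0.92). FAM158A is an older symbol of EMC9, which RefSeq places on the same chromosome as REC8 with 3 protein-coding genes between them. For SMC1B they were LMO3 (r = 0.97), FKBP9 (r = 0.97) and CCDC34 (r = 0.97), a search added after the values were seen. These values are a description. All share the same libraries and the step at EGA.

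SMC3 (XLOC_044709), the ring protein common to both forms of the complex, fell. Its levels were 108 and 80.6 CPM in MII, 86.5 and 75.8 CPM in 2C, and 37.5 and 63.3 CPM in 4C. They were 18.6 and 7.70 CPM in 8C, 26.3 and 67.5 CPM in 16C, 14.7 and 42.6 CPM in EM, 18.5 and 17.1 CPM in CM, and 15.7 and 23.5 CPM in BL. The groups overlapped only through 16C replicate 2 and EM replicate 2, which lay above the lowest sample before EGA.

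Means of SMC3 were 75.2 ± 23.6 CPM before EGA (SD, n = 6) and 25.2 ± 17.5 CPM after it (SD, n = 10). The change at EGA was -2.18 with an SE of 0.41 (limma adjusted p = 9.5e-05), and it held in all 28 alternatives. Of its stages MII and 2C stood above the rest, with all 4 samples above both 4C samples. From 4C to 8C SMC3 fell by 1.96 with an SE of 0.62 (limma adjusted p = 0.0233), and this call was lost in 4 of 25 alternatives, among them those without 8C replicate 2 (-1.23) or without either 4C sample. Between MII and 4C the difference of -1.68 was not called (limma adjusted p = 0.101).

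RAD21 (XLOC_014966), the mitotic kleisin, was present in every sample and varied more within stages. It had 74.0 and 131 CPM in MII, 104 and 66.6 CPM in 2C, and 43.1 and 65.1 CPM in 4C. After EGA it had 18.6 and 58.7 CPM in 8C, 42.5 and 62.5 CPM in 16C, and 47.4 and 132 CPM in EM. CM samples had 36.9 and 40.0 CPM and BL samples 41.3 and 16.1 CPM. The groups overlapped, and in CPM EM replicate 2 was the highest of all 16 samples. On the scale of the deposited values, used for the test, it had 93.4 against 317 in MII replicate 2.

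RAD21 means were 80.6 ± 31.5 CPM before EGA (SD, n = 6) and 49.6 ± 32.6 CPM after it (SD, n = 10). The change was -1.31 with an SE of 0.40 (limma adjusted p = 0.00668). MII replicate 2 and 2C replicate 1, in which SMC1B was low, were in CPM the 2 highest RAD21 samples before EGA. Without them the change was -0.92 and was not called (limma adjusted p = 0.061), nor was it when samples were scaled to total reads (-0.82, limma adjusted p = 0.086). The median of all tested loci moved from 0.23 to 0.65 under that scaling. Single steps were not called for RAD21, with -0.67 from 4C to 8C (SE 0.64, limma adjusted p = 0.427) and -1.64 from MII to 4C (SE 0.64, limma adjusted p = 0.118). The first of these was -1.34 without 8C replicate 2 and -0.0046 without 8C replicate 1.

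STAG1 (XLOC_000417), a mitotic subunit that binds the kleisin, showed no change at EGA that passed the test and was lowest at the 4-cell stage. It had 70.9 and 46.5 CPM in MII, 103 and 29.9 CPM in 2C, and 22.2 and 17.2 CPM in 4C. After EGA it had 59.4 and 17.3 CPM in 8C, 61.0 and 115 CPM in 16C, 69.5 and 127 CPM in EM, 121 and 87.1 CPM in CM, and 64.8 and 91.0 CPM in BL. Apart from 8C replicate 2, every sample after EGA lay above both 4C samples. Neighbouring stages in the order of means overlapped throughout, from CM at 104 ± 23.9 CPM to 4C at 19.7 ± 3.55 CPM (SD, n = 2).

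The change of STAG1 at EGA was 0.38 with an SE of 0.45 (limma adjusted p = 0.469), and it ranged from 0.10 without 4C replicate 2 to 0.84 without MII replicate 2 and 2C replicate 1, without a call. From MII to 4C it fell by 2.27 with an SE of 0.68 (limma adjusted p = 0.049), a call close to the threshold that was lost in 17 of 26 alternatives. In this step 2.19% of loci were called lower. Across the 8 stages STAG1 was not called (limma adjusted p = 0.078), while 4 alternatives called it. The loci most like it over the 16 samples were GPT2 (r = 0.85), CAST (r = 0.84) and ESYT2 (r = 0.84), again as a description.

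SMC1A (XLOC_075420), the mitotic partner of SMC3, had few reads and reached at most 9.87 CPM in a sample. Before EGA 49 reads were found, 28 of them in 2C replicate 2, and after it 19. MII samples had 1.33 and 0 CPM, 2C samples 3.33 and 8.29 CPM, and 4C samples 7.64 and 1.23 CPM. The highest sample was 16C replicate 2, and the groups overlapped. The two-sided exact permutation test gave a difference of -0.83 (p = 0.178). The result rested on MII replicate 2, without which the difference was -1.25 (exact permutation p = 0.038). Of the stage effect, limma gave an adjusted p of 0.309.

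STAG2 (XLOC_073582), the other mitotic subunit of its kind, was listed at 0 in all 16 samples. In the order of the deposited data it sits inside an unbroken block of 2578 loci without any read, which also holds HDAC8, NCAPH2, SYCE3 and BMP15, an oocyte growth factor. Its value therefore gives no level for STAG2.

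Set side by side, the meiotic members differed in direction. By limma 1 of the 4 meiotic members could be tested at EGA. It was REC8, which passed the filter through the samples after EGA, so no direction is counted from it. Of the 5 mitotic members 3 could be tested and 2 were lower, where 29.9% of all tested loci were lower. Among meiotic members REC8 had higher levels after EGA, SMC1B and STAG3 fell by the permutation test and RAD21L1 was not detectable. Among mitotic members SMC3 and RAD21 fell, STAG1 and SMC1A did not pass the test, and STAG2 gave no value. The summed level of meiotic members was 42.7 ± 21.9 CPM before EGA (SD, n = 6) and 86.8 ± 43.0 CPM after it (SD, n = 10). After EGA the sum was nearly all REC8, whose 934 reads stood beside 3 of SMC1B, 3 of STAG3 and 1 of RAD21L1. These sums weigh genes by reads and not by molecules. Mitotic members summed to 208 ± 72.8 CPM before and 158 ± 70.1 CPM after. Among them the means of SMC3, which serves in both forms, were 75.2 CPM before and 25.2 CPM after EGA. Those of RAD21 were 80.6 and 49.6 CPM, of STAG1 48.2 and 81.4 CPM, and of SMC1A 3.64 and 2.10 CPM. The lower sum is therefore not a fall common to the mitotic members.

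The balance within each position of the ring was measured as the log2 ratio of (value + 1) of a meiotic member to its mitotic counterpart. For SMC1B to SMC1A the ratio was 2.99 ± 1.42 before EGA (SD, n = 6) and -1.07 ± 1.24 after it (SD, n = 10), with no overlap of the groups. The difference was -4.06 (two-sided exact permutation p = 1.2e-04, 3.7e-04 after adjustment over 3 ratios). After EGA the 10 samples held 3 reads of SMC1B and 19 of SMC1A, so the ratio there depends largely on the added 1. In 8C replicate 2 and CM replicate 2 neither gene had a read, which gives a ratio of 0. The difference is thus mostly the loss of SMC1B reads given above. For the kleisins the order of change was the reverse. The ratio of REC8 to RAD21 was -3.24 ± 1.87 before EGA and 0.80 ± 1.41 after it, a difference of 4.04 (exact permutation p = 3.7e-04, adjusted 5.6e-04). Before EGA it was -5.77 and -5.06 in MII, with 2 and 8 REC8 reads, and -0.77 and -2.03 in 4C, and this difference was not tested. It was highest in BL replicate 2 at 2.81. The groups overlapped through 16C replicate 2, at -1.73, and EM replicate 2, at -0.78.

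**Figure D2:**
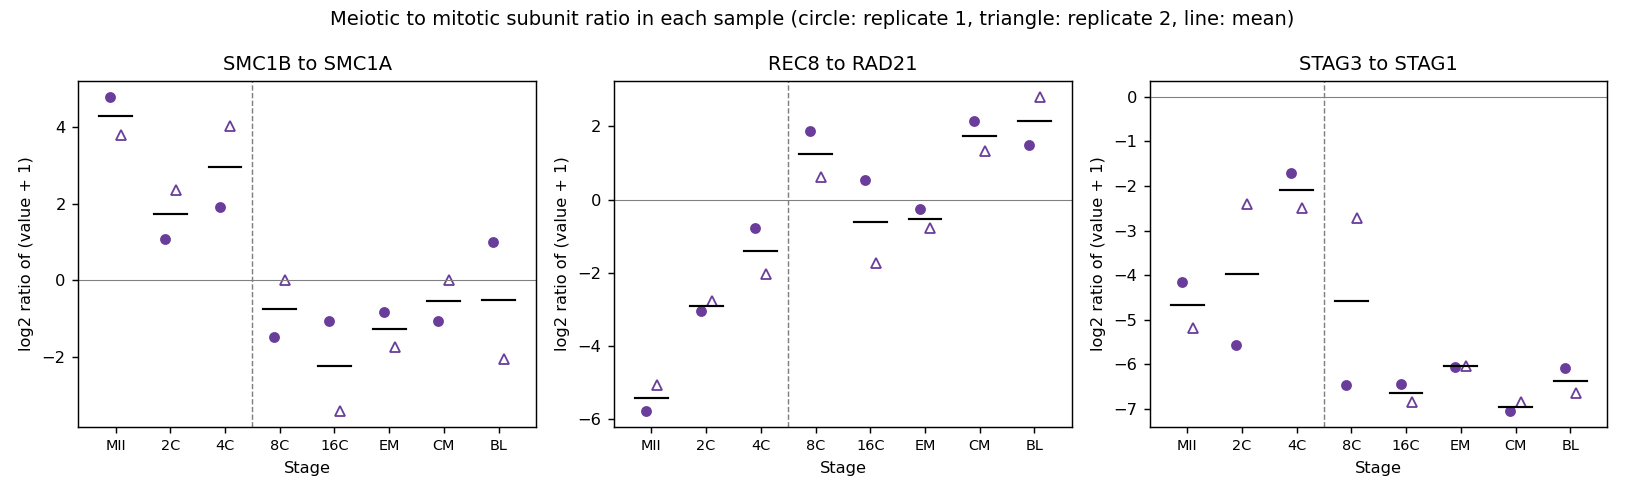
Log2 ratio of (value + 1) of a meiotic subunit to its mitotic counterpart (vertical axis, own scale in each panel) in each sample, by stage. Circles are replicate 1, triangles replicate 2 and bars the mean of the 2 samples, and the dashed line marks genome activation. SMC1B to SMC1A lies above 1.08 in every sample before the line and at most at 1.01 after it, REC8 to RAD21 climbs, and STAG3 to STAG1 falls except in 8C replicate 2 (-2.72).

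Since STAG2 gave no value, STAG3 was set against STAG1, a choice made after the values were seen. This ratio was -3.58 ± 1.61 before EGA and -6.11 ± 1.25 after it, a difference of -2.53 (two-sided exact permutation p = 0.00362, adjusted 0.00362). It overlapped through 8C replicate 2, at -2.72. The direction and call of each of the 3 ratios held in all 22 alternatives run for it. RAD21L1, with 1 read, was set against no other gene.

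Genes that load, lock and release cohesin were taken as a list of 18, of which 16 were found, 15 had reads and 14 were tested at EGA. Of these 1 was higher and 4 were lower after EGA, where 36.9% of all tested loci were higher and 29.9% lower, so the share that fell was close to the background. The median change was -0.61 against 0.23 for all tested loci. CDCA5 (sororin, which protects cohesin from release) had 0.876 to 7.64 CPM before EGA and 14.8 to 30.2 CPM after it, without overlap. Its fitted change was 2.34 with an SE of 0.39, and since it passed the filter through the samples after EGA, at which it was high, its call is not read as support. Of the tested loci 18.4% were higher after EGA without overlap, and of all loci with a read 7.59%.

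Those with lower levels were of several roles. ESCO2, an acetyltransferase that locks cohesin on DNA during replication, had 27.8 to 79.9 CPM in the samples before EGA and 2.94 to 17.7 CPM after it. Its fitted change was -3.22 with an SE of 0.40, and since the samples before EGA alone carried it through the filter, its call is not read as support either. SGO1 (shugoshin, which shields cohesin at centromeres) fell by 2.25 with an SE of 0.38 (limma adjusted p = 2.5e-05). Levels of ESCO2 and SGO1 did not overlap between the groups, and 9.7% of the tested loci were lower in this way. PTTG1 (securin, the inhibitor of separase) fell by 3.20 with an SE of 0.70 (limma adjusted p = 4.3e-04), and 3 samples after EGA had no read. PDS5A, a regulator that stays bound to the ring, fell by 1.30 (SE 0.30, limma adjusted p = 7.5e-04).

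The other 3 genes named by the rule were not called. PDS5B, the paralog of PDS5A, had -1.24 (SE 0.62, limma adjusted p = 0.083). NIPBL, the loader, had 0.97 (SE 0.46, limma adjusted p = 0.066), with 4.38 and 15.3 CPM in MII replicate 2 and 2C replicate 1 against 36.3 to 61.3 CPM in the other 4 samples before EGA. ESPL1 (separase, the protease that cuts the kleisin) had -0.76 (SE 0.50, limma adjusted p = 0.183). Scaled to total reads, NIPBL (1.42, limma adjusted p = 0.0133) and CTCF (1.11, limma adjusted p = 0.0288) were higher as well and PDS5A was no longer called (limma adjusted p = 0.056). CTCF, which stops cohesin at loop anchors, was named here after its values were seen.

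**Figure D3:**
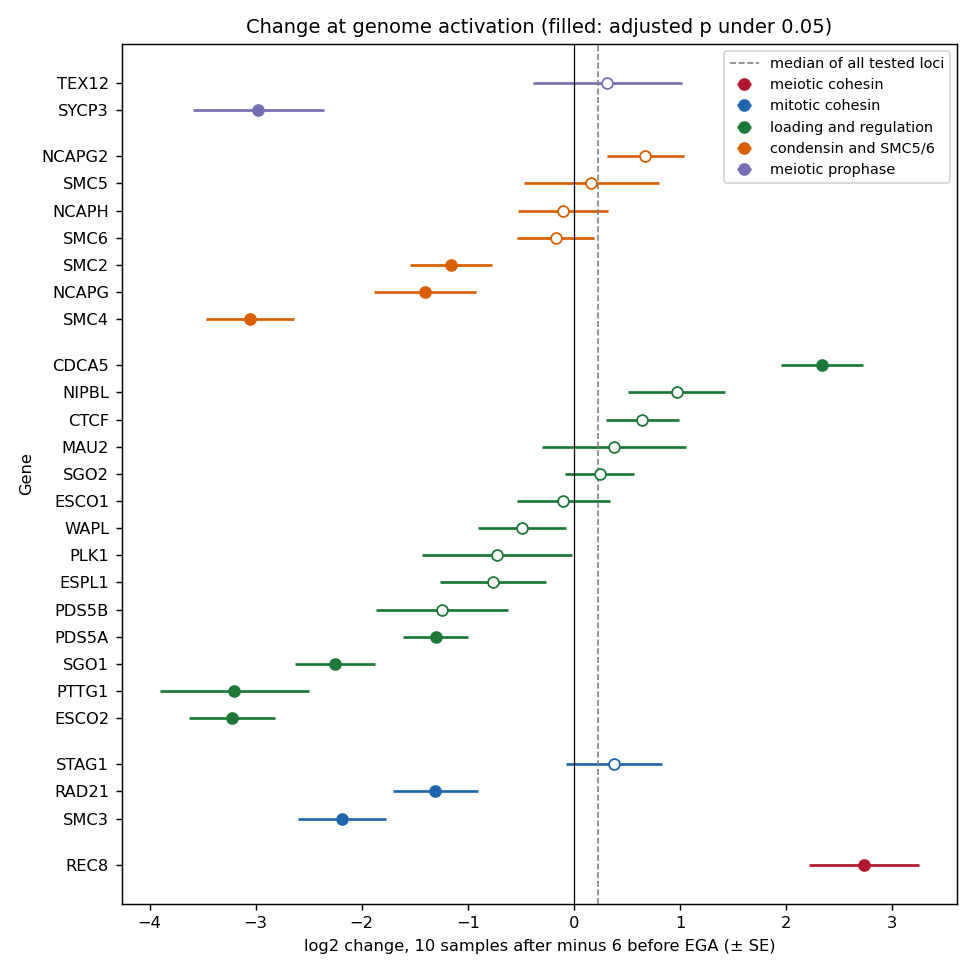
Change at genome activation (horizontal axis, log2 difference of 10 samples after EGA minus 6 before, with bars of 1 SE) of every tested cohesin gene and list gene. Filled points passed the adjusted p threshold of 0.05, colours mark the lists, and the dashed line is the median of all tested loci at 0.23. REC8 and CDCA5 stand to the right, at 2.74 and 2.34, and ESCO2, PTTG1, SMC4 and SYCP3 lie farthest to the left.

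Between MII and 4C, where 6.48% of loci were called higher, 2 of the 15 genes tested were higher and none lower. They were MAU2, the partner of NIPBL (3.94, SE 0.86, limma adjusted p = 0.0149), and PLK1, a kinase that helps to release cohesin in prophase (3.81, SE 1.01, limma adjusted p = 0.0314). Between 4C and 8C 2 were lower and none higher, against 19.1% of loci lower. These were PLK1 (-3.59, limma adjusted p = 0.0123) and ESCO2 (-2.41, limma adjusted p = 0.0158). MAU2 and PLK1 were named after their values were seen.

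The condensins and the SMC5/6 complex, which are built on proteins of the same SMC family, were taken as a list of 10 genes, of which 7 were tested at EGA. None was higher and 3 were lower, against 36.9% and 29.9% of all tested loci, with a median change of -0.17 against 0.23. SMC4, the condensin subunit with the largest fall, had 315 to 956 CPM before EGA and 57.7 to 336 CPM after it (-3.05, SE 0.41, limma adjusted p = 1.4e-06). NCAPG, another condensin subunit, had -1.40 (SE 0.48, limma adjusted p = 0.0134), a call lost without MII replicate 2 and 2C replicate 1 (-0.93, limma adjusted p = 0.117). SMC2, the partner of SMC4, had -1.16 (SE 0.39, limma adjusted p = 0.0121). Scaled to total reads, only SMC4 was called lower and NCAPG2 was higher (1.11, limma adjusted p = 0.0191), while the main value of NCAPG2 was 0.67 (limma adjusted p = 0.105). NCAPH (-0.10), SMC5 (0.16) and SMC6 (-0.17) were not called at EGA.

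Genes of meiotic prophase, in which meiotic cohesin is the scaffold of the chromosome axis, were taken as a list of 17, of which 15 were found and 12 had reads. At EGA 2 were tested and 1 was lower, against 29.9% of all tested loci. SYCP3, an axis protein that binds along meiotic cohesin, had 167 to 381 CPM before EGA and fell by 2.97 with an SE of 0.61 (limma adjusted p = 2.3e-04). After EGA it had 12.4 and 73.1 CPM in 8C and 16.2 to 45.4 CPM from 16C to CM, and then 256 and 417 CPM in the blastocysts. The rise from 16C to BL was 3.92 with an SE of 0.65 (limma adjusted p = 0.00275), when 3.34% of loci were called higher. The blastocyst levels of SYCP3 overlapped those of the 2 oocytes (265 and 320 CPM), while SMC1B had 3 reads in 1 blastocyst and STAG3 none. TEX12 (0.31, SE 0.70) was not called at EGA.

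Between 4C and 8C, where 19.1% of loci were called lower, SYCP3 fell by 2.52 with an SE of 0.65 (limma adjusted p = 0.00787). MSH5, MLH3 and HEI10, genes of the crossover machinery, entered the model of 8 stages only through stages at which they were high, so they are given as reads and without a test. They were not tested at EGA and are named here outside the rule. MSH5 had 14 and 17 reads in 4C and 0 and 1 in 8C, MLH3 16 and 7 against none, and HEI10 2 and 14 against none. Reads of 2 of them were found again later, with 4 and 5 of MLH3 in 16C and 9 and 23 of HEI10 in EM. HEI10 had 38 reads before EGA and 36 after it, and MLH3 72 and 31. MSH5, like SMC1B, did not overlap between the groups, with 164 reads before EGA and 9 after it, where 5.07% of all loci with a read were lower in this way. TEX12, a protein of the central element of the synaptonemal complex, fell from 16C to BL (-3.59, limma adjusted p = 0.0228), when 2.23% of loci were called lower.

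**Figure D4:**
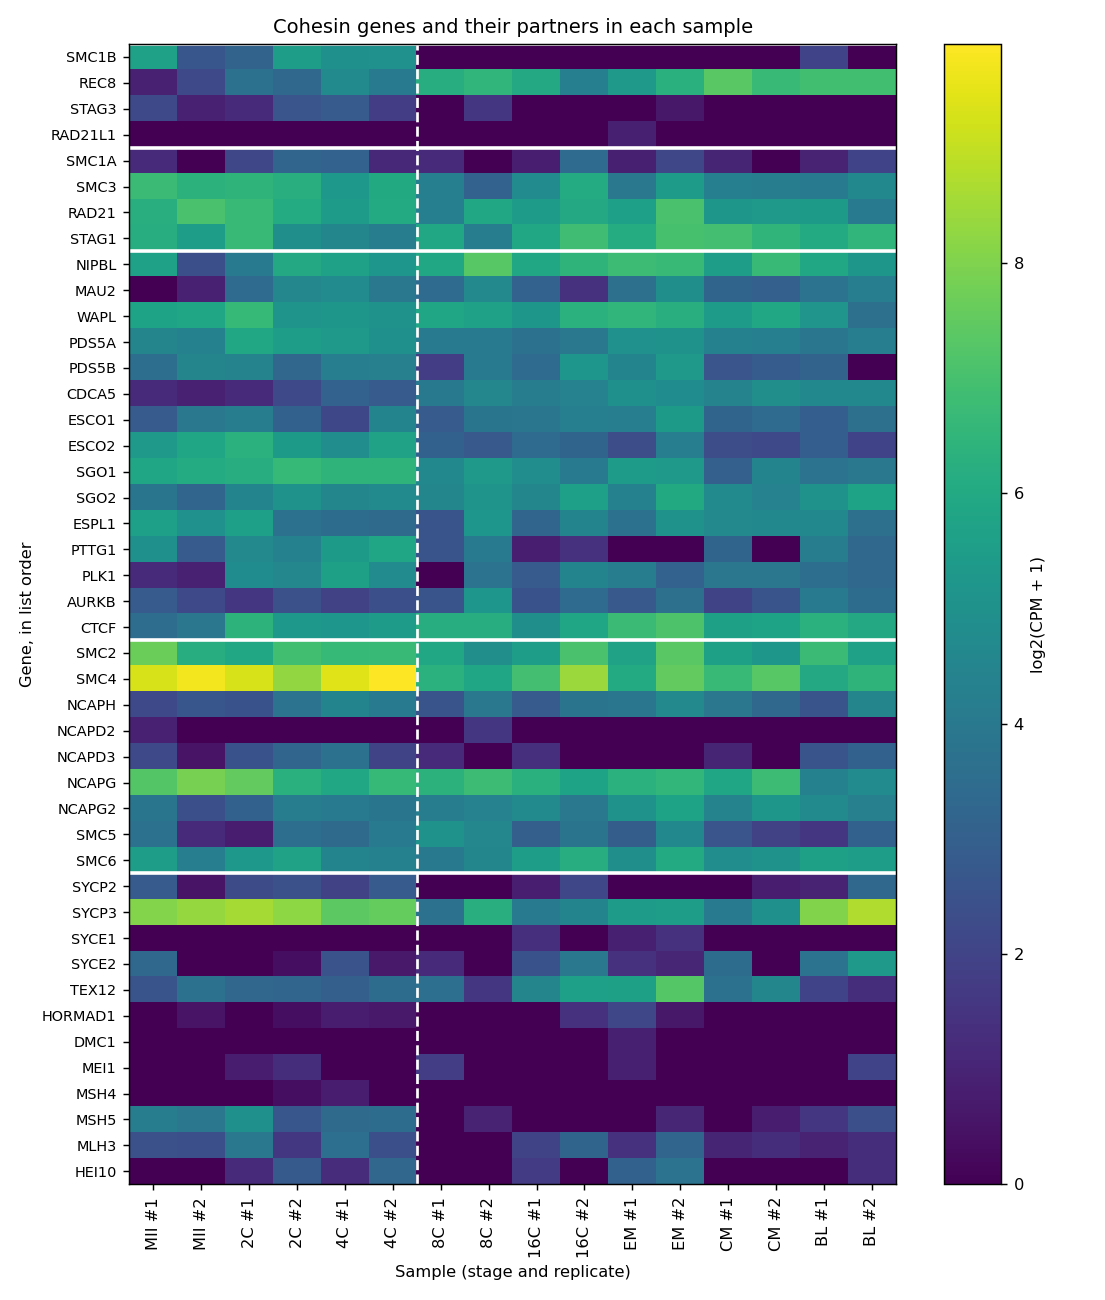
Colour gives log2(CPM + 1) of the cohesin genes and of the listed genes with a read (rows, in list order: meiotic cohesin, mitotic cohesin, loading and regulation, condensin and SMC5/6, meiotic prophase) in each of the 16 samples (columns, by stage and replicate). The dashed line marks genome activation and white lines part the lists. SMC1B turns dark to the right of the line while REC8 brightens, and SYCP3 dims after the line and is bright again in both blastocysts.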

How the data were processed

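RNA from single oocytes and embryos was amplified and sequenced on the SOLiD platform by the authors, and per the labels their processing notes name cutadapt, FastQC, TopHat, Cufflinks and HTSeq. Genome build, versions and strand setting are not given in the sources used here. The deposited values are a signal per locus, read counts divided by a size factor of the sample. In each sample 100% of the values above 0 equalled the value of 1 read times a whole number (tolerance 0.01), so reads were recovered.

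Changes were tested by limma 3.58.1 (R 4.3.3, empirical Bayes with trend) on log2(deposited value + 1), over loci kept by filterByExpr of edgeR 4.0.16: 6910 in the comparison before and after EGA, 9670 in the model of 8 stages. Cohesin genes below the filter and ratios were tested by two-sided exact permutation (scipy 1.17.1). On simulated counts limma was tested with known changes. Alternatives were edgeR and DESeq2 1.42.0 on recovered reads, TMM and total-read scaling, pseudocounts of 0.5 and 5, no filter, summed loci, a replicate block, omitted samples and an omitted 8-cell stage.

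All 9 cohesin genes are named. Of each list up to 8 tested genes with the largest absolute change at EGA are named, and others are marked. The most alike loci were sought for the meiotic and the mitotic gene with the highest mean. Where a name has several loci, the one with the highest mean was used. Genes and lists were chosen with earlier results of these data known. One gene of the prophase list was left out of all counts and is not reported here. Other list genes stand only in the counts. No sequences or gene lengths were used.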

Additional observations from a re-analysis of the deposited data

Results flagged for a closer look

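Of the 20 groups of 6 or 10 values tested for a sample far from the others, 4 had one, and chance alone gives about 1 in 20 groups. Blastocyst replicate 1 was the only one of the 10 samples after EGA with SMC1B reads, so that its gap to the nearest sample was the whole range (1.00). For STAG3 after EGA, 8C replicate 2 stood above the others by 0.723 of the range. For STAG1 after EGA the same sample was lowest, by 0.623 of the range, at 17.3 CPM. It was again highest in the ratio of STAG3 to STAG1, by 0.766 of the range. In this sample the summed oocyte genes were at 1417 CPM, 1347 CPM of it H1FOO, against at most 56.4 CPM in the other 9 samples after EGA, and their part in these values was not tested.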

How the results depend on the processing

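The changes of SMC3, SMC1B and STAG3 at EGA and the 3 ratios kept direction and call in every alternative run for them. That of REC8 kept its direction. RAD21 at EGA lost its call in 2 of 28. Its stage effect was lost without MII replicate 2 (limma adjusted p = 0.132), without BL replicate 2 (0.067) and with total reads (0.162). SMC1A at EGA was called in 2 of 22, both without MII replicate 2. The SMC1B difference of 4C and MII turned to -0.45 by edgeR, -0.51 by DESeq2 and -1.31 without MII replicate 2 (-1.31 to 1.61 over samples left out). STAG1 between 4C and 8C ranged from -0.31 (without 8C replicate 1) to 1.70, and SMC1A between 16C and BL from -1.88 to 0.47 (without 16C replicate 2). None of these 3 was called, and the cause was not tested.

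Over all loci, 4619 were called at EGA and 7075 without the filter, when 18318 were tested. For 4C against MII 839 were called, 398 by edgeR and 39 to 1196 with a sample left out, the lowest without 4C replicate 2, and total reads gave 1037 higher and 63 lower in place of 627 and 212. For 8C against 4C 3560 were called (1711 higher and 1849 lower), 2740 by edgeR (1657 and 1083), 2839 by DESeq2 (1648 and 1191) and 1935 to 3844 with a sample left out, the lowest without 4C replicate 2. For BL against 16C 539 were called (323 higher and 216 lower), 87 by edgeR (24 and 63), 399 by DESeq2 (172 and 227), 954 with a pseudocount of 5, 809 without the 8-cell stage and 123 to 885 with a sample left out, the lowest without BL replicate 2. Where a stage kept 1 sample, it was assumed to vary like the other stages. Replicate numbers did not pair samples: the replicate differences of 28 pairs of stages correlated at -0.26 to 0.13, 1 of them over 0.1. With the replicate number as a block 4579 loci were called at EGA and 6381 against 6449 for the stage effect, and STAG1 in 4C against MII was no longer called (limma adjusted p = 0.0505).

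Depth limits SMC1A, STAG3 and RAD21L1, whose levels lay at or near the 3-read floor in most samples.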
